A study of Mus musculus with 6 samples.

Results

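The mammalian circadian clock is a loop of transcription factors, and 10 of its genes were examined here: the activators Arntl (also called Bmal1) and Clock, the repressors Per1, Per2, Per3, Cry1 and Cry2, the nuclear receptor Nr1d1, and the output factors Dbp and Hlf. They were chosen by symbol, and all 10 were measured by a probe set that the platform annotation pairs with a single gene, among 19937 genes measured that way. Each had 1 such probe set. The arrays came from adult neural stem cells and neural progenitors of mice of the 129SV strain, taken at 8 weeks of age, grown as neurospheres with EGF and bFGF, replated on coated plates and collected while proliferating at passage 2. The tested genotype, NestinCre;Sirt1lox/lox (3 arrays), carried floxed Sirt1 alleles and a Cre recombinase driven by the Nestin promoter, which is active in neural stem and progenitor cells, and its cells are labelled as lacking active SIRT1. The controls, Sirt1lox/lox (3 arrays), carried the same floxed alleles and no Cre, so an effect of Cre and an effect of SIRT1 cannot be told apart. The titles call the arrays of a genotype biological replicates. The labels do not say how many mice stand behind a culture, at what time of day cells were collected, or whether they were synchronised.

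In the clock, CLOCK and ARNTL bind as a pair to E-box elements and switch on the Per and Cry genes, whose proteins return to the nucleus and block that pair. A second loop runs through NR1D1, which is made from an E-box-driven gene and represses Arntl through RORE elements, while DBP and HLF activate genes through D-box elements. SIRT1, an NAD-dependent deacetylase, binds the CLOCK and ARNTL pair and removes acetyl groups from ARNTL and PER2, as known from mouse liver and fibroblasts. In a dish the rhythms of single cells drift apart unless a stimulus resets them, so the level of a clock transcript in a whole culture depends on both amplitude and phase. In bulk RNA, fewer cells of a type and less RNA per cell cannot be told apart.

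The mouse reference promoters of some members hold elements of the kinds used in the loop. RefSeq windows of build GRCm38.p6, from 250 bases before to 50 bases after a transcript start, were searched on both strands. The motifs were the E-box CACGTG, its variant CACGTT, the D-box TTATGTAA, the cyclic AMP response element (CRE) TGACGTCA and the RORE consensus. Windows were held for 9 of the 10 members, all but Per2 (13 windows). These motifs share no letters in any match below, and the capitals mark them, with the variant E-box read as AACGTG from the opposite strand. The stretches are shown because each holds an element of a kind that a clock factor or, for the CRE, the signal-responsive factor CREB can bind, and that of Sirt1 because it is the targeted gene.
Per1 E-box, chr11:69098759-69098812 (+): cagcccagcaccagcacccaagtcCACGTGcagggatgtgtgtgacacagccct
Cry1 variant and E-box, chr10:85185085-85185157 (-): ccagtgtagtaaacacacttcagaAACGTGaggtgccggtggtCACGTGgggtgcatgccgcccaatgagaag
Nr1d1 variant E-box, chr11:98775376-98775429 (-): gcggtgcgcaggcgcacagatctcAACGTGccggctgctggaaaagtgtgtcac
Per3 D-boxes, chr4:151044792-151044894 (-): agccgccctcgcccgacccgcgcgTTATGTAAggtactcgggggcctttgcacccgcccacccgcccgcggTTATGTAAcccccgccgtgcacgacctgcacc
Hlf CRE, chr11:90390895-90390950 (-): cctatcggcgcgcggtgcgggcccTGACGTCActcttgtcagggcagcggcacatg
Arntl RORE, chr7:113207513-113207560 (+): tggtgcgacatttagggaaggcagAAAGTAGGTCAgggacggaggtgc
Sirt1 E-boxes, chr10:63339049-63339174 (-): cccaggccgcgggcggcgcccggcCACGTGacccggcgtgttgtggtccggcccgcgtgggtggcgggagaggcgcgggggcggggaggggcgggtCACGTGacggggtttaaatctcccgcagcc

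Among all 32851 promoter windows, 7.15% held the E-box, 4.68% the variant, 0.938% the D-box, 1.79% the CRE and 0.384% the RORE consensus. The E-box of Per1 began 166 bases before the start of transcription and that of Cry1 60 bases before it. The D-boxes of Per3 began 205 and 158 bases before the start, and the RORE of Arntl began 26 bases after it. Cry2 held the variant E-box 166 bases before its start, and the windows of Clock and Dbp held none of these letters. A match is a description of the sequence and not evidence of binding in these cells.

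Sirt1 itself was read first, as a check of the labels. Its probe set gave log2 values of 8.26, 8.33 and 8.25 in Sirt1 inactive replicates 1 to 3, against 8.73, 8.78 and 8.55 in control replicates 1 to 3. The groups did not overlap, as for 9.33% of all tested probe sets. Sirt1 thus differed by -0.41 (SE 0.08) and stood at 0.755 times its control level, with a 95% interval of 0.667 to 0.855, but did not pass over all probe sets (limma, adjusted p = 0.959). The labels do not name the floxed exon, and a transcript that lacks it may still be read by the probes. Control replicate 3 lay farthest from the other arrays, and Sirt1 inactive replicate 2 next. The median absolute distance to the mean of the other arrays was 0.117 for control replicate 3 and 0.059 to 0.089 for the others. The 6 astrocyte markers summed to between 65.9 and 67.2 log2 units in Sirt1 inactive and between 60.1 and 66.7 in control, the lowest being control replicate 3. In that culture Gfap, the filament protein of astrocytes, stood at 7.41 and Aqp4, a water channel, at 8.42. On the other controls Gfap was 9.55 and 9.87. Not all astrocyte markers were low there: the glutamate transporter gene Slc1a3 read 12.39, against 12.46 and 12.47 on the other controls, and Slc1a2 read 10.19, against 9.61 and 10.37. The 6 measured neural stem and progenitor markers, among them Nes and Sox2, summed to between 69.5 and 70.1 in Sirt1 inactive and between 69.3 and 69.9 in control, and all 6 lay above the array medians. No defining marker was at 0 on this scale. The means of all 4 endothelial markers and of 4 of 5 microglia markers lay at or below the medians.

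The clock genes differed little between the genotypes, and none of the 10 passed the test (limma, Benjamini-Hochberg over 22961 probe sets, adjusted p between 0.959 and 0.995). Over all probe sets 0 passed (0%), and at an unadjusted p under 0.05 there were 0 of 10 members against 830 of all probe sets (3.61%). For 6 members the difference was below 0 and for 4 above, where 60.1% of all tested probe sets were below 0. Without control replicate 3 it was below 0 for 9 of the 10. The share of all probe sets in that fit was not computed. The median difference of the members was -0.04, against -0.02 for all tested probe sets. The median size of a difference, without its sign, was 0.04 for the members and 0.06 for all. Hlf had the largest difference in size (-0.22), Per1 the next (-0.13) and Nr1d1 the third (-0.08). For all 10 members the 95% interval lay within 0.5 log2 units of 0, as for 91.1% of all tested probe sets. That of Hlf met this limit narrowly, at -0.499. Some other fits took it past the limit. Without control replicate 1 the interval of Hlf was -0.585 to -0.040, wholly below 0 (limma, unadjusted p = 0.030, adjusted p = 0.741). The 2 genotypes overlapped for every member, so 0 of 10 had separate groups, against 9.33% of all tested probe sets.

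**Figure D1:**
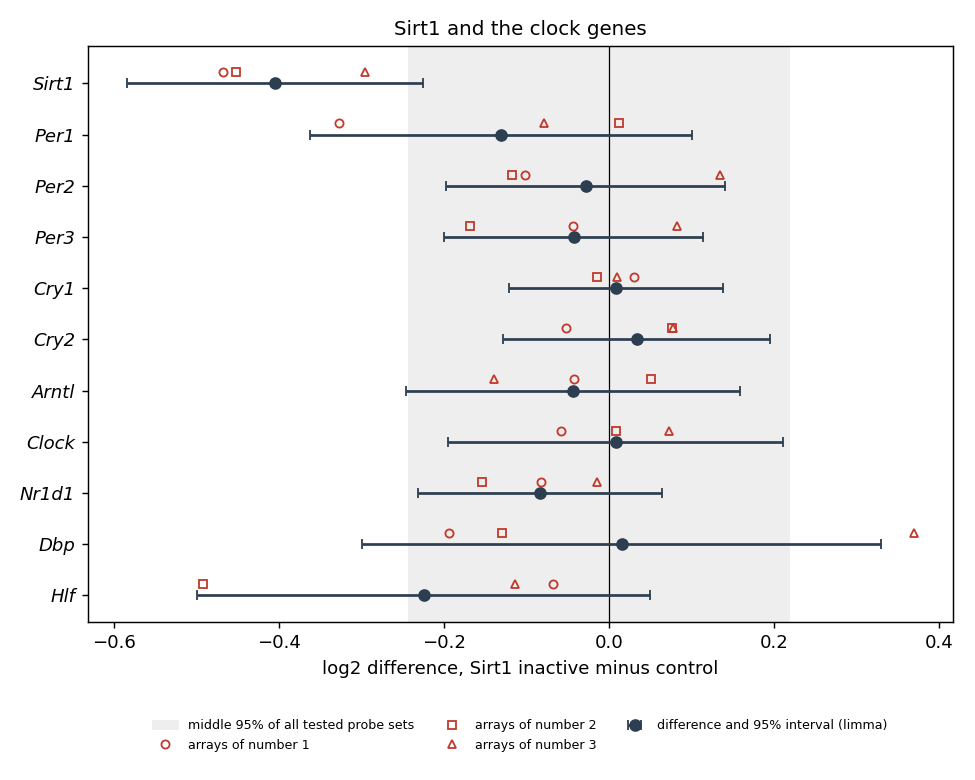
Log2 difference, Sirt1 inactive minus control, for Sirt1 and the 10 clock genes. Filled points and bars are limma's estimate with its 95% interval, from the fit without a replicate block (3 arrays per genotype). Open symbols are the difference between arrays of the same replicate number. The grey band is the middle 95% of all tested probe sets (-0.24 to 0.22). The interval of Sirt1 lies below 0, and the intervals of all 10 clock genes cover 0.

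Arntl, the activator whose loss alone stops the mouse clock, read 8.97, 9.11 and 8.82 in Sirt1 inactive replicates 1 to 3, against 9.02, 9.06 and 8.96 in control. The highest and the lowest of the 6 values were both Sirt1 inactive, and the controls lay between them. Its difference was -0.04 (SE 0.09, 95% interval -0.25 to 0.16; limma, adjusted p = 0.968). Clock, the partner of ARNTL, read 10.00, 9.87 and 9.86 in Sirt1 inactive and 10.05, 9.86 and 9.79 in control. Replicate 1 was highest in both genotypes, and replicate 3 lowest in both. The difference of Clock was 0.01 (SE 0.09, 95% interval -0.19 to 0.21), so a change beyond 0.874 or 1.16 times control lay outside its interval.

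Per1, the period gene that also responds quickly to hormones and cyclic AMP, read 9.15, 9.15 and 9.08 in Sirt1 inactive, against 9.48, 9.14 and 9.16 in control. Control replicate 1 stood above the other 5 arrays, which spanned less than 0.1 of a log2 unit. The difference of -0.13 (SE 0.10, 95% interval -0.36 to 0.10) did not pass (limma, adjusted p = 0.959), and without control replicate 1 it was -0.02. Per2, whose protein is a SIRT1 substrate, read 8.44, 8.41 and 8.49 in Sirt1 inactive and 8.55, 8.53 and 8.35 in control. The Sirt1 inactive values lay inside the range of the controls. Its difference was -0.03 (SE 0.07, 95% interval -0.20 to 0.14). Per3, the paralogue with the D-boxes shown above, read 8.27, 8.23 and 8.31 in Sirt1 inactive, against 8.31, 8.40 and 8.22 in control. Here too the Sirt1 inactive values lay inside the control range. The difference of Per3 was -0.04 (SE 0.07, 95% interval -0.20 to 0.11), and without control replicate 2 it was -9.6e-05.

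The cryptochromes are the strongest repressors of the CLOCK and ARNTL pair, and Cry1 had the smallest spread of the 10 members. Cry1 read 8.27, 8.27 and 8.31 in Sirt1 inactive and 8.24, 8.29 and 8.30 in control. Its whole range over 6 arrays was 0.068, and only 0.967% of all tested probe sets had a smaller one. Its difference was 0.01 (SE 0.05), and the 95% interval of its fold ran from 0.919 to 1.10 times control. Cry2 read 8.63, 8.60 and 8.58 in Sirt1 inactive, against 8.69, 8.53 and 8.50 in control. The Sirt1 inactive values again lay within the control range, and the difference was 0.03 (SE 0.07, 95% interval -0.13 to 0.20).

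Nr1d1, the repressor of Arntl also called Rev-erb alpha, read 10.24, 10.19 and 10.19 in Sirt1 inactive, against 10.32, 10.35 and 10.20 in control. It was lower in Sirt1 inactive in all 3 same-numbered pairs, by amounts of -0.08, -0.15 and -0.01, but Sirt1 inactive replicate 1 lay above control replicate 3. Among all tested probe sets 31.6% had 3 pairs in a single direction, and among the members 2 did, Nr1d1 and Hlf. Nr1d1 thus stood at 0.944 times control (95% interval 0.852 to 1.05), a log2 difference of -0.08 (SE 0.06). It did not pass (limma, adjusted p = 0.959), nor with the replicate number as a block (adjusted p = 0.727).

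**Figure D2:**
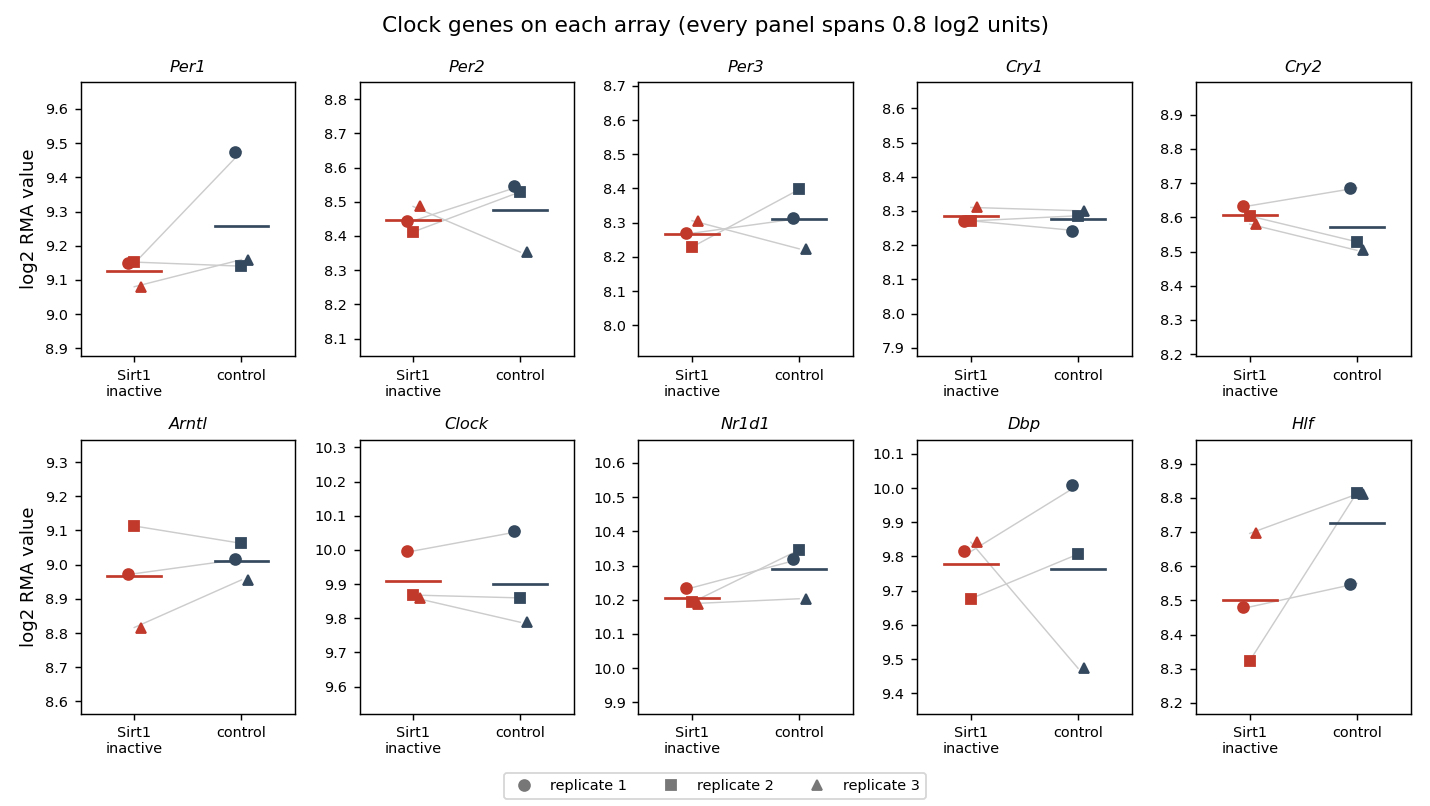
Log2 RMA value (y axis) of each clock gene in Sirt1 inactive (red, left) and control (dark, right) arrays. Symbols give the replicate number, grey lines join arrays of the same number, short bars are means of 3, and each panel spans 0.8 log2 units. The genotypes overlap in every panel, and the points of Dbp and Hlf are the most spread out.

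Dbp and Hlf, leucine zipper factors of the PAR family that carry the rhythm to output genes, varied most between cultures. Dbp read 9.81, 9.68 and 9.84 in Sirt1 inactive and 10.01, 9.81 and 9.47 in control. The controls held both the highest and the lowest of the 6 values, a range of 0.54, and 88.1% of all tested probe sets had a smaller one. The difference of the means was 0.01 (SE 0.13, 95% interval -0.30 to 0.33), but by replicate number it was -0.19, -0.13 and 0.37. Without control replicate 3, the culture with the lowest astrocyte marker sum, the difference was -0.13 (limma, adjusted p = 1.00). The part of that culture's makeup in the value of Dbp was not tested.

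Hlf read 8.48, 8.32 and 8.70 in Sirt1 inactive, against 8.55, 8.81 and 8.81 in control. The lowest pair of values were both Sirt1 inactive and the highest pair both control, with overlap in between. Hlf was lower in all 3 same-numbered pairs, by amounts of -0.07, -0.49 and -0.11, so the second pair carried most of the difference. The difference of -0.22 (SE 0.12, 95% interval -0.50 to 0.05) is a level of 0.856 times control (0.707 to 1.03). The 6 neuroblast and neuron markers, which hold no gene of the clock, had sums of 46.7 to 47.9 in Sirt1 inactive and 48.0 to 50.6 in control. The 5 oligodendrocyte progenitor markers had sums of 46.7 to 47.9 in Sirt1 inactive and 45.1 to 45.8 in control. All 6 neuroblast and neuron markers differed below 0, where 60.1% of all tested probe sets did. All 5 microglia and all 4 endothelial markers also differed below 0. The oligodendrocyte progenitor markers were split, with 3 above 0 and 2 below. No marker of these lists passed, and the part of cell makeup in the value of Hlf was not tested. The difference of Hlf did not pass (limma, unadjusted p = 0.094, adjusted p = 0.959), nor with the replicate block (adjusted p = 0.656), and the exact two-sided permutation test gave p = 0.2, where 3 against 3 allows no p below 0.1. Leaving out single arrays moved the difference between -0.32, without Sirt1 inactive replicate 3, and -0.14, without Sirt1 inactive replicate 2. In the first of these fits the 95% interval was -0.60 to -0.05 (limma, unadjusted p = 0.027, adjusted p = 0.994).

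Read by array, the members did not all move together. Control replicate 1 held the highest value of 5 members (Per1, Per2, Cry2, Clock and Dbp), against 17.5% of all tested probe sets. Control replicate 3 held the lowest of 5 (Per2, Per3, Cry2, Clock and Dbp), against 17.7%. For 4 members both held, where the same was true of 6.42% of all tested probe sets. For 8 of 10 members the SD of the controls exceeded that of the Sirt1 inactive arrays, and this was so for 60.0% of all tested probe sets. The 2 arms of the loop were compared by the sign of each gene's deviation from its own mean over the 6 arrays. Members lay opposite to Arntl on 1 to 4 of 6 arrays, with Nr1d1 opposite on 1 and Cry1 and Hlf on 4. In Sirt1 inactive replicate 2 Arntl deviated by 0.12 and Dbp and Hlf by -0.09 and -0.29, and in Sirt1 inactive replicate 3 Arntl deviated by -0.17 and Dbp and Hlf by 0.07 and 0.08. In control replicate 2, by contrast, Arntl, Nr1d1, Dbp and Hlf were all above their means (0.07, 0.10, 0.04 and 0.20). Counted by genotype, Dbp lay opposite to Arntl on 3 Sirt1 inactive and 0 control arrays, and Hlf on 2 of each. The share of all probe sets with such signs was not computed, so these signs only describe the arrays.

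**Figure D3:**
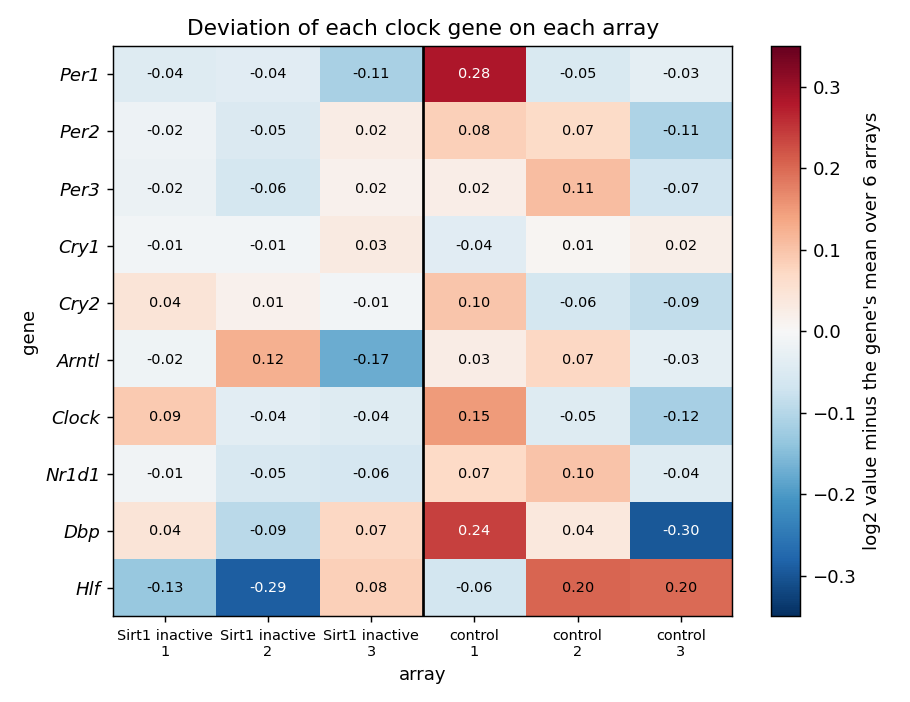
Deviation of each clock gene (rows) from its own mean over 6 arrays, in log2 units, with Sirt1 inactive arrays left of the line and controls right of it. Red is above the mean and blue below. The largest deviations are those of Dbp on control replicate 3 (-0.30), Hlf on Sirt1 inactive replicate 2 (-0.29) and Per1 on control replicate 1 (0.28).

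The genes most like Dbp and Hlf over the 6 arrays were ranked among all 19937 genes, by the root mean square difference after each gene was centred on its mean. Provisional symbols of the Gm, LOC and Rik kinds were passed over, and the first 3 remaining genes are given. For Dbp they were Nqo2, a quinone reductase (0.018), Itgav, an integrin subunit (0.019), and Ggcx, the vitamin K-dependent carboxylase (0.023). All 3 shared with Dbp a high control replicate 1 and a low control replicate 3, as in Itgav at 11.86 and 11.30. For Hlf they were Cacna1d, a calcium channel subunit (0.051), Atp8a1, a lipid flippase (0.055), and Gpr176, a G protein-coupled receptor (0.057). These 3 had their lowest value on Sirt1 inactive replicate 2, as Hlf did. Shared high and low arrays follow from the way these genes were picked. With 6 arrays and so many genes such likeness describes these arrays only.

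The pathway around the members was read from a list of 28 further genes, 24 of them present on the array with a probe set of their own. None passed in either direction (limma, adjusted p between 0.959 and 0.999). At an unadjusted p under 0.05 there was 1 of 24, against 3.61% of all probe sets, and 3 of 24 had groups that did not overlap, against 9.33%. With the replicate block 2 of 24 had an unadjusted p under 0.05, against 1741 of 22961 probe sets, and none passed. The differences were above 0 for 11 and below 0 for 13, with a median of -0.0041. By role, the 3 measured nuclear receptors of the second loop lay between -0.05 and 0.07. The 3 E-box repressors lay between -0.08 and 0.16, and the 7 kinases and ubiquitin ligases of PER and CRY between -0.14 and 0.21.

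Noct, a rhythmic phosphatase gene, was the gene of this list with the smallest p. It read 9.96, 10.15 and 9.93 in Sirt1 inactive, against 9.77, 9.92 and 9.72 in control. Every Sirt1 inactive value was above every control value, with the lowest of the first at 9.93 and the highest of the second at 9.92. The difference was 0.21 (SE 0.09, 95% interval 0.01 to 0.42) and did not pass (limma, unadjusted p = 0.045, adjusted p = 0.959). With the replicate number as a block the interval of Noct was 0.08 to 0.35 (limma, unadjusted p = 0.0091, adjusted p = 0.656). Array weights moved the difference to 0.12, with an interval of -0.06 to 0.30. Wee1, a kinase gene that brakes entry into mitosis and is driven by E-boxes in mouse liver, read 10.20, 10.37 and 10.23 in Sirt1 inactive, against 10.17, 10.19 and 10.09 in control. The groups were separate and the difference was 0.11 (SE 0.07, adjusted p = 0.959 by limma), or 0.06 without Sirt1 inactive replicate 2. Fbxw11, a ubiquitin ligase subunit that marks PER proteins for breakdown, was the third gene with separate groups, at 0.06 (SE 0.05). Tsc22d3, a glucocorticoid-induced gene with a daily rhythm, averaged 8.26 ± 0.13 in Sirt1 inactive and 8.54 ± 0.22 in control (SD, n = 3 each). Its difference of -0.28 (SE 0.12) did not pass (limma, unadjusted p = 0.058, adjusted p = 0.959), and it was -0.15 without control replicate 1. With the replicate block the 95% interval of Tsc22d3 was -0.51 to -0.04 (limma, unadjusted p = 0.028, adjusted p = 0.656).

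Among the regulators of PER and CRY stability, Csnk1e, the kinase CK1 epsilon, averaged 11.11 ± 0.05 in Sirt1 inactive and 11.25 ± 0.12 in control (SD, n = 3 each), a difference of -0.14 (SE 0.08), or -0.07 with control replicate 3 left out. Its relatives Csnk1d and Csnk1a1 differed by -0.0059 and -0.0024, and Hdac3, the deacetylase that NR1D1 recruits to repress Arntl, by 0.0012. Their 95% intervals reached no farther than 0.15 to either side. Bhlhe41, an E-box repressor also called Dec2, differed by 0.16 (SE 0.11), or 0.05 without control replicate 3 and 0.26 without control replicate 1. Nr1d2, the paralogue of Nr1d1, named here after its values were seen, differed by -0.02 (SE 0.06, 95% interval -0.16 to 0.11).

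A few further genes of the list, also named after their values were seen, followed control replicate 3. Nfil3, the repressor that competes with DBP at D-boxes, read 7.67, 7.63 and 7.72 in Sirt1 inactive, against 7.42, 7.78 and 8.24 in control. Fbxl21, a CRY ubiquitin ligase subunit, read 7.69, 6.87 and 6.82 in Sirt1 inactive, against 7.80, 7.27 and 5.67 in control. Its probe set is dim, with group means of 7.13 and 6.92 below the array medians (7.36 to 7.39). The value of 5.67 lay below the lower quartile of its array (5.83). Fbxl21 and Nfil3 were not in the fit without probe sets below the median brightness. The highest Nfil3 and the lowest Fbxl21 value were both on control replicate 3, where Dbp was lowest and the astrocyte marker sum was lowest. Their differences were -0.14 (SE 0.19) and 0.21 (SE 0.53), and without that array they turned to 0.07 and -0.41. Ppargc1a, a coactivator that SIRT1 deacetylates and that raises Arntl through ROREs in liver, had 2 probe sets. The brighter read 10.64, 10.21 and 10.49 in Sirt1 inactive, against 10.57, 10.31 and 10.11 in control, a difference of 0.12 (SE 0.15), or 0.0033 with control replicate 3 left out. The other probe set differed by 0.35 (SE 0.22), and neither passed (limma, adjusted p = 0.959).

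**Figure D4:**
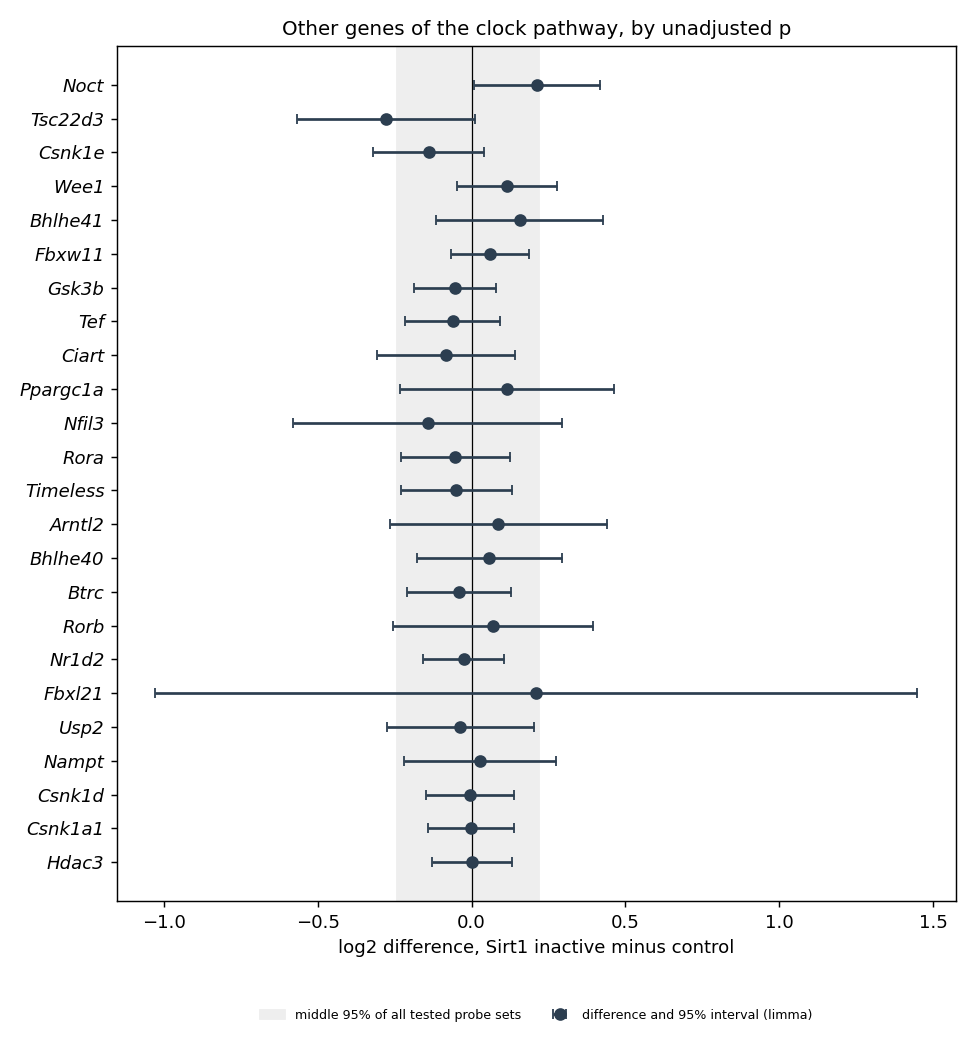
Log2 difference, Sirt1 inactive minus control, of 24 other genes of the clock pathway, ordered by unadjusted p, with limma's 95% intervals (3 arrays per genotype) and the middle 95% of all tested probe sets in grey. In this fit, which has no replicate block, the interval of Noct lies above 0 and all others cover 0. That of Fbxl21 is the widest (-1.03 to 1.45).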

How the data were processed

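RNA of 6 cultures, 3 per genotype, was hybridised to 1-colour Affymetrix whole-transcript arrays. The deposited values are log2 expression values made by the authors with RMA, which adjusts background, normalizes between arrays and summarises probe sets, per the submitters' processing notes. The log2 scale was read from the values (3.02 to 13.6). Neither a version of RMA nor a genome build is named in the labels. RMA compresses differences of dim probe sets, so fold changes can be understated, and levels of different genes are not comparable. All values of the members lay above the array medians (7.36 to 7.39). The table held 0 columns of other samples.

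Of 34760 probe sets, 21640 have 1 gene in GEO's platform annotation, 1321 several and 11799 none listed; the 22961 with a gene were tested. A gene with several probe sets was read from the one with the highest mean. Symbols of the 34 clock genes were unchanged in RefSeq's table (GRCm38.p6). Differences are Sirt1 inactive minus control, fitted with limma 3.58.1 in R 4.3.3 over all 6 arrays, with two-sided p-values adjusted by Benjamini-Hochberg over all tested probe sets and a threshold of 0.05. The fit was tested on simulated data. The p-values measure the spread between these samples, whose separate origin rests on the titles alone. Precision is limited by the number of arrays, and the members' median SE was 0.079. Members, gene lists and tests were chosen with earlier results of these data known.

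Named genes are the members, Sirt1, of the other clock genes the 6 with the smallest p and the 4 with the highest mean, the 3 genes most like each of the 2 members of largest range, and markers of the list that differed most. Symbols of the Gm, LOC and Rik kinds were passed over in the search for like genes. Nr1d2, Nfil3, Fbxl21, Ppargc1a, Nes and Sox2 fall outside this rule and were chosen after their values were seen. Same-numbered arrays deviated together over all probe sets (Pearson r = 0.47, 0.36 and 0.27 for numbers 1, 2 and 3). The numbers were therefore taken as pairs in the pair differences and the replicate block, from the data and not from a label. The main fit has no replicate term. With the block the SE was smaller for some members, such as Clock (0.058 against 0.086), and slightly larger for Per2 and Per3. The intervals of all members covered 0 with the block too. Further marker lists, summed over their genes, were read on each array. In log2 units per marker, Sirt1 inactive minus control, they gave 0.40 for astrocytes, 0.31 for oligodendrocyte progenitors, -0.31 for neuroblasts and neurons, -0.11 for microglia, -0.09 for endothelium, 0.07 for mural cells and fibroblasts and 0.03 for neural stem and progenitor cells, and no marker passed. Without control replicate 3, a setting chosen after seeing the data, the value for astrocytes was 0.06, that for oligodendrocyte progenitors 0.27, that for neuroblasts and neurons -0.18 and that for mural cells and fibroblasts -0.09. Over all 6 arrays the oligodendrocyte progenitor value joins 3 markers above 0 with 2 below. Alternatives were other scalings, array weights, another variance prior, the replicate block, other sets of tested probe sets and leaving out each array.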

Additional observations from a re-analysis of the deposited data

How the results depend on the processing

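Under 16 alternative fits no clock member and none of the other clock genes passed, and the members' adjusted p stayed at or above 0.54 (limma). The number of probe sets that passed was 0 in all of them except the replicate block without both arrays of number 3, where it was 19, none a clock gene. In that fit the median difference of the members was -0.11, and 7 of the 10 were below 0. Leaving out single arrays moved this median between -0.088, without control replicate 3, and -0.0074. With the replicate block over all 6 arrays the count at an unadjusted p under 0.05 was 1741, against 830 without it and 0 members in both, and the block changed no call. The exact permutation test of 3 against 3 cannot go below 0.1. Hlf, Nr1d1 and Per1 stayed below 0 in all 16 fits, and so did Per3, though at -9.6e-05 without control replicate 2. Other differences changed sign, small ones and larger ones alike. In the block without number 3 these were Arntl (0.0039), Clock (-0.025), Dbp (-0.16), Nfil3 (0.049), Bhlhe41 (-0.0011), Csnk1a1 (0.024), Fbxl21 (-0.26), Hdac3 (-0.017) and Ppargc1a (-0.020). With array weights they were Dbp (-0.011), Csnk1d (9.9e-05) and Fbxl21 (-0.14). With array medians subtracted they were Csnk1d (0.019) and Csnk1a1 (0.022), and after a renewed quantile normalization Hdac3 (-0.010). Over single arrays left out, the ranges that crossed 0 were -0.090 to 0.0066 for Per2, -0.0091 to 0.020 for Cry1, -0.0013 to 0.090 for Cry2, -0.12 to 0.032 for Arntl, -0.049 to 0.085 for Clock, -0.13 to 0.14 for Dbp, -0.34 to 0.071 for Nfil3, -0.41 to 0.65 for Fbxl21, -0.029 to 0.031 for Csnk1d, -0.032 to 0.027 for Csnk1a1 and -0.016 to 0.020 for Hdac3. Ranges that kept their sign were -0.19 to -0.02 for Per1, -0.37 to -0.15 for Tsc22d3, 0.05 to 0.26 for Bhlhe41, -0.19 to -0.07 for Csnk1e, 0.06 to 0.15 for Wee1, 0.14 to 0.27 for Noct and 0.0033 to 0.24 for Ppargc1a. Fits that leave arrays out show only which arrays a difference depends on, and the cause of these changes was not tested. RMA values carry no background reading, so the signal over background is unknown.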
